A study of Mus musculus with 115 samples.

Results

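The SRF motif was measured in 3 DNA contexts, as 3 of the 275 constructs of the series: 1 of 122 in the class named unphased, 1 of 24 in the class named nuc, whose construct names begin with nucleosomal, and 1 of 24 in the class named non_nuc, whose construct names begin with non_nucleosomal. The SRF motif was chosen by these same measurements, the differences of its GCH methylation from the construct without a motif and from the median of its pool in each class. All SRF values below are therefore a description, and no p-value is given for them. They were read in 8 libraries, 2 of the unphased pool that held SRF and 3 each of the nuc and non_nuc pools that held it. The construct without a motif was read in 8 libraries of 3 other pools, 2 unphased, 3 nuc and 3 non_nuc.

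The assay was amplicon NOMe-seq of constructs integrated at one recombination target site (RMCE locus) in mouse embryonic stem cells labelled 129S6/SvEvTac. A GpC methyltransferase marks cytosines in DNA that is not covered by a nucleosome or another tight binder, and bisulfite sequencing reads the mark. The share of reads methylated at a GCH site, a GC followed by A, C or T, is the measure of accessibility and is given in percent. A pool is a set of constructs sequenced in the same libraries. The groups did not differ in any labelled genotype, treatment or time; they differed in the construct and the pool. The labels do not say whether replicates came from separate cultures, so the SDs may describe technical spread only. The cell identity could not be checked, because the assay reads genomic DNA and gives no expression. Positions are counted in bases along the amplicon, and genome coordinates are not given in the sources used here.

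SRF, serum response factor, is a MADS-box transcription factor that binds as a dimer to the CArG box. It regulates immediate early genes and genes of the actin cytoskeleton, with partners that include the ETS-family ternary complex factors (ELK1, ELK3 and ELK4) and the myocardin-related factors, which respond to actin. A nucleosome over a motif can limit binding of a factor, and a bound factor can in turn leave its neighbourhood accessible. The motif sat in a variable window, positions 127 to 154 in the unphased class and 176 to 203 in the nuc and non_nuc classes. The flanks were the sites within 40 bp of the window on either side, and the sites beyond them are called far left and far right. The letters of the constructs are not printed, as the sequences were not among the files used here.

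1 library stood apart. In replicate 3 of the non_nuc pool, the SRF construct lay on average 16.3 percentage points from the mean of the other replicates over its 35 sites. Replicates 1 and 2 of the same construct lay 6.95 and 9.77 points from the mean of the others. No other construct in that pool reached this distance in any replicate. The non_nuc differences by region are therefore given with and without that library. The unphased pool of the construct without a motif held only 1 construct, whereas the unphased pool of SRF held 9. In every class SRF and the construct without a motif were in different pools. A difference between them thus cannot be told apart from a difference between pools. The comparison with the median of the other constructs in the same library does not have this limit, but those constructs carry motifs of their own. Among them, MAX::MYC in unphased and ARNTL in nuc had identical values in another pool, so their libraries are not known.

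In the window, the SRF constructs had a GCH site at the 2 same places in all 3 classes, 3 and 23 bp from the first base of the window. These were positions 130 and 150 in the unphased class and 179 and 199 in the other classes. The construct without a motif had its window sites elsewhere, at 131, 149 and 154 in the unphased class and only at 189 in nuc and non_nuc. Window levels of these constructs are thus not means over the same bases. Flank and far levels are means over the sites that both constructs share.

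In the unphased context, the SRF construct was more accessible than the construct without a motif from position 101 to position 210, with its greatest difference just right of the window. The right flank, sites 164 and 187, was methylated at 46.7% and 46.1% in replicates 1 and 2 with SRF, and at 31.9% and 32.2% without a motif. The SRF libraries were both above the others, by 14.3 points on average (46.4% ± 0.460 against 32.1% ± 0.205, SD, n = 2 each). The same non-overlap held for 49.2% of the unphased constructs with a motif (59 of 120), so by itself it does not set SRF apart. A gap of at least 10 points as well was found in 10.8% of them. At site 164, SRF libraries were at 51.2% and 52.7% and those without a motif at 33.6% and 32.5%, a difference of 18.9 points. The difference was 9.81 points at site 187, 8.43 at site 197 and 5.36 at site 210, so it was smaller at each site farther from the window. At the last site, 243, the order was the opposite, with SRF at 29.4% and 28.2% and no motif at 32.4% and 37.5%. Of the 14 shared sites, SRF was above no motif without overlap at 6 and below at 1, where 19.9% of all single sites of the unphased constructs were above and 46.8% below.

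The left flank of the unphased class holds a single GCH site, 101, where SRF was at 68.1% and 67.1% and no motif at 59.2% and 63.9%. SRF was 6.02 points higher, and its libraries did not overlap with the others, as for 12.4% of the unphased constructs. That value rests on the low replicate 1 of the construct without a motif, without which it was 3.67 points. In the window the SRF construct was at 52.1% and 50.5% and the construct without a motif at 42.4% and 41.7%. SRF was 9.25 points higher there without overlap, which 45.5% of constructs also were. Within the window the sites of SRF were unequal, with 61.7% and 59.7% at site 130 and 42.5% and 41.4% at site 150. Far left, over 8 sites, SRF was at 56.6% and 63.5% against 56.2% and 59.2%, and the libraries overlapped. Far right, over 3 sites, SRF was at 36.8% and 36.9% against 33.9% and 34.7%, higher by 2.56 points without overlap, as 27.5% of the constructs were.

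Among the 9 constructs of its own unphased pool, SRF ranked 2 of 9 in the right flank. It exceeded the pool median within the library by 12.2 points in replicate 1 and by 10.1 in replicate 2, and 39.5% of unphased constructs were above their pool median in both replicates. SP2, a member of the SP family that binds GC-rich promoter elements, had the highest right flank of that pool at 50.8% ± 4.42. MYC, an E-box factor, had the lowest at 21.4% ± 1.55. SRF exceeded the pool median by 7.19 and 5.74 points in the left flank and by 6.40 and 2.62 points in the window. For those regions, 35.8% and 38.3% of constructs were above their pool median in both replicates. Site by site, SRF was above the median of its pool in both replicates at 12 of 14 sites and below it in both at 0 of 14. For all unphased constructs together, 35.4% of single sites were above and 35.4% below. ELK4, an ETS-family factor that binds DNA together with SRF, was in the same pool and was looked up after its values were seen. Its right flank was at 35.0% and 43.4%, below SRF in both libraries, and 7.17 points above the construct without a motif.

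Ranked by the difference from the construct without a motif, SRF was 8th of 120 unphased constructs in the right flank, where the median construct was 1.81 points higher than no motif. TRP53, the p53 motif, came directly before it at 14.7 points and ZFP143, a zinc finger factor of promoters, directly after it at 13.6 points. Neither neighbour can be separated from SRF by the spread, as the right flank of TRP53 was 46.7% ± 14.1 and that of ZFP143 45.7% ± 0.612, beside 46.4% ± 0.460 for SRF. The 3 highest were CTCF, an insulator factor, at 53.6 points, REST, a repressor of neuronal genes, at 48.9 points, and BANP, a factor of CpG island promoters, at 38.9 points. SRF was thus far below those 3 motifs in this context.

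In the nuc context, the right flank was more accessible with SRF than without a motif, while the left flank and the window overlapped. The right flank, sites 213, 221 and 236, was at 30.2%, 23.6% and 39.6% in replicates 1 to 3 with SRF and at 20.5%, 14.3% and 17.6% without a motif. All SRF libraries were above all libraries without a motif, by 13.7 points (31.1% ± 8.04 against 17.5% ± 3.11, SD, n = 3 each). The lowest SRF library was 3.12 points above the highest library without a motif. Of the nuc constructs with a motif, 43.5% (10 of 23) did not overlap with no motif in this direction, and 34.8% also differed by at least 10 points. By site the differences were 14.7 points at 213, 11.7 at 221 and 14.6 at 236. Past the flank the libraries overlapped at sites 246 and 249, where SRF replicate 2 was at 17.6% and 27.3%, beside 14.7% to 22.2% and 20.4% to 28.4% without a motif. They were apart again at site 259, where SRF was at 37.5%, 43.5% and 39.7% and no motif at 25.7%, 22.4% and 26.3%. Over sites 213 to 259, SRF was at 34.8%, 26.5% and 40.4% against 22.1%, 16.7% and 21.6%, and at 292 to 313 the means were 58.5% ± 1.84 and 58.6% ± 5.36.

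The left flank of the nuc SRF construct was at 68.4%, 59.6% and 71.7%, and without a motif it was at 71.0%, 62.6% and 68.0%. These libraries overlapped, and the difference of -0.594 points was the median of the 23 nuc constructs. In the window SRF was at 33.8%, 25.6% and 41.4% and no motif at 33.3%, 23.7% and 27.9%. The libraries overlapped, and the difference of 5.31 points was 1.40 without replicate 3 of SRF. No nuc construct lay above no motif in the window in all libraries (0.0%), and SRF ranked 2 of 23 by the difference, after REST_r at 6.49 points and before TRP53_r at 3.67. The suffix _r is given as in the construct names, which do not spell it out. The spread covers these neighbours, whose window levels were 34.8% ± 8.48 and 32.0% ± 5.58 beside 33.6% ± 7.93 for SRF. Sites 33, 71, 96 and 132 on the far left and 337 and 349 on the far right were lower with SRF in all libraries, by 4.24 to 9.57 points. Over all 34 shared sites SRF was above no motif without overlap at 5 and below at 6, close to the 13.6% and 13.9% of single sites over all nuc constructs. Over the whole amplicon SRF and no motif were at 53.7% ± 3.44 and 53.2% ± 2.53.

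Against its own nuc pool, most of the size of the right-flank difference came from 1 library. SRF exceeded the pool median in the right flank by 4.35, 3.79 and 24.5 points, a mean of 10.9 ± 11.8, which was 4.07 without replicate 3. In 30.4% of nuc constructs all 3 libraries were above the pool median there. In the window the excess was 6.66, 3.05 and 18.5 points, a mean of 9.42 that was 4.86 without replicate 3, and 21.7% of nuc constructs were above the median in all libraries. In the left flank the signs were mixed, 2.86, -8.46 and 7.19 points. In its pool SRF ranked 3 of 8 in the right flank and 1 of 8 in the window. BANP had the highest right flank of this pool at 58.5% ± 8.97 and BANP_r the lowest at 14.9% ± 4.14. Site by site, SRF was above the pool median in all libraries at 5 of 34 sites and below it at 1, beside 22.3% and 22.1% of single sites over the class. Over sites 213 to 259, replicate 2 of SRF, at 26.5%, was below the median of its pool mates, at 32.5%. In the class as a whole SRF was 6th of 23 in the right flank, between OctSox, the joint motif of OCT4 and SOX2, at 13.9 points and RFX2, a winged helix factor, at 13.3 points, and the class median was 5.72. The right flanks of these neighbours, 31.4% ± 10.4 and 30.7% ± 7.55, overlap that of SRF within 1 SD. CTCF, REST, BANP and TRP53 led that order, with differences from 68.6 down to 32.0 points.

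In the non_nuc context, the SRF construct was more accessible than the construct without a motif on both sides of the window, and by more than in the other contexts on the right. The right flank was at 65.1%, 57.7% and 85.4% with SRF and at 29.9%, 44.8% and 36.5% without a motif. All SRF libraries were above all libraries without a motif, by 32.3 points (69.4% ± 14.4 against 37.1% ± 7.46, SD, n = 3 each), and by 24.3 points without the library that stood apart. In this class 34.8% of constructs with a motif (8 of 23) did so. Site by site the difference in the right flank was 32.7, 30.6 and 33.7 points at 213, 221 and 236, and it was still 29.6 points at 259. Over sites 213 to 259 SRF was at 59.2%, 53.1% and 82.3%, and no motif at 25.5%, 41.1% and 32.1%. The gap closed by site 292, where SRF was at 30.3%, 31.1% and 11.7% and no motif at 16.5%, 29.6% and 21.0%.

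The left flank with SRF was at 90.7%, 86.8% and 94.9%, and without a motif at 72.8%, 79.3% and 82.2%. SRF was higher by 12.7 points without overlap, and by 10.6 points without its replicate 3. Of the 23 constructs, 17.4% (4) had a left flank above no motif in all libraries, and SRF had the largest difference of the 23. ARNTL, a bHLH factor of the circadian clock, followed at 10.4 points, with a level of 88.5% ± 4.51 that overlaps the 90.8% ± 4.06 of SRF. In the window SRF was at 67.8%, 61.7% and 88.8% and no motif at 61.8%, 68.8% and 70.7%. These overlapped, and the difference of 5.62 points was -2.41 without the library that stood apart. As in the nuc class, no non_nuc construct was above no motif in the window in all libraries (0.0%), whereas 78.3% were below it in all libraries. SRF and ARNTL were the only 2 of 23 with a window mean above that of no motif, with ARNTL at 0.933 points, and that of SRF rests on its replicate 3.

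The non_nuc SRF construct was above no motif without overlap at 17 of 30 shared sites and below at 0 of 30, beside 18.3% and 0.870% of single sites over all non_nuc constructs. The 17 sites were 33, the 6 sites from 72 to 96, and the 10 sites from 140 to 259 outside the window, where differences ran from 9.62 to 34.6 points. Between them, at 109 to 129, lay a stretch that was low in both constructs. There SRF was at 17.2%, 12.5% and 7.23% and no motif at 11.4%, 32.6% and 16.6%, with overlap. The library without a motif that was lowest over the amplicon, replicate 1 at 44.9%, was also lowest in the right flank, and the others were at 55.9% and 51.7%. The far right level was higher with SRF, at 42.2%, 39.1% and 46.0% against 23.5%, 38.3% and 30.4%. The difference was 11.7 points, or 9.93 without replicate 3, and 17.4% of constructs were above no motif without overlap here, but this region begins at site 246 and so includes the end of the high stretch.

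Against its own non_nuc pool, SRF exceeded the median in the right flank by 26.0, 19.9 and 45.8 points, a mean of 30.6 ± 13.5 that was 23.0 without replicate 3. All 3 libraries were above the pool median in 34.8% of the constructs of the class. The excess in the left flank was 6.36, 2.55 and 18.2 points, a mean of 9.02 that was 4.46 without replicate 3. In the window it was 13.9, 4.16 and 33.8 points, a mean of 17.3 that was 9.01 without replicate 3. The shares of constructs above the pool median in all libraries were 34.8% in the left flank and 39.1% in the window. BANP was the only construct of the pool with a higher right flank, at 72.7% ± 9.84, and GMEB2, a SAND domain factor, had the lowest at 32.3% ± 3.61. SRF was 4th of 23 in the class by difference from no motif, after CTCF at 41.2 points, REST at 38.7 and BANP at 35.6, and before ARNTL at 24.2. The levels of BANP and ARNTL (61.3% ± 9.48) overlap that of SRF within 1 SD. The median non_nuc construct differed from no motif by 3.70 points in this flank.

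Downstream of the high stretch, the non_nuc SRF construct was lower than its pool. Over sites 326 to 353 it was at 36.4%, 37.4% and 16.8%, beside pool medians of 57.0%, 49.7% and 43.8%. Of the 33 sites compared with the pool, SRF was above the median in all libraries at 14 and below it in all at 8, and 5 of those 8 were sites 297, 326, 337, 349 and 353. Over the class 24.2% of single sites were above the pool median in all libraries and 22.5% below. The library that stood apart was the most extreme at both. In that library the sites from 213 to 259 were between 76.2% and 87.9%, sites 292, 297, 303 and 326 were between 11.7% and 17.9%, and site 313, among them, was at 72.9%. Site 313 was at 39.8% and 28.2% in replicates 1 and 2. Site 133 was likewise at 74.9% in replicate 3 and at 37.5% and 39.6% in the others, although the adjoining sites 109 to 129 were lowest in replicate 3.

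Across contexts, the mean right-flank difference between SRF and no motif was 14.3 points in unphased and 13.7 in nuc, and largest in non_nuc at 32.3. These means cover 2 sites in unphased and 3 in the other classes. At 37 bp from the first base of the window the difference was 18.9 points in unphased and 14.7 in nuc. At 60 bp it was 9.81 and 14.6, so the near-equal means did not hold site by site. For the flank means, the nuc value minus the non_nuc value was -18.7 points, or -10.7 without non_nuc replicate 3. That was rank 2 of 23 motifs from the lowest, after ARNTL at -18.9 and before MTF1, a metal-responsive factor, at -7.38, where the median motif was at 4.45. The median motif thus had the larger right-flank difference in nuc, and SRF had it in non_nuc. The non_nuc value minus the unphased value was 18.0 points, or 9.99 without non_nuc replicate 3, rank 20 of 21 motifs from the lowest. The nuc value minus the unphased value was -0.668 points, 10th from the lowest of 21, and ranged from -4.90 to 3.10 when 1 library was left out, so no direction is given for it. In the left flank nuc minus non_nuc was -13.3 points (median motif -4.22), rank 3 of 23 from the lowest, after ARNTL at -20.5 and before CTCF_r at -11.7. Without non_nuc replicate 3 of SRF it was -11.2 points, no longer below CTCF_r. In the window it was -0.309 points, but 7.72 without non_nuc replicate 3, so no direction is given for the window. The contexts differ in backbone sequence, pool and starting level. Without a motif the right flank was at 32.1% in unphased, 17.5% in nuc and 37.1% in non_nuc, and the left flank was at 61.6%, 67.2% and 78.1%.

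A small dip at the right edge of the window was seen in every SRF library. Site 150 minus site 164 was -8.64 and -11.3 points in the unphased replicates. Site 199 minus site 213 was -1.94, -6.82 and -7.89 points in nuc, and -4.91, -4.71 and -1.21 points in non_nuc. The last window site was thus lower than its right neighbour in 8 of 8 SRF libraries. A dip in all libraries was found in 12.3% of unphased, 37.5% of nuc and 29.2% of non_nuc constructs. Without a motif, the last window site was above its right neighbour in 8 of 8 libraries, but at other positions (154 or 189). On the left edge the first window site was below its left neighbour in all SRF libraries, as in 100.0% of unphased, 95.8% of nuc and 100.0% of non_nuc constructs. This comparison was chosen after the values were seen. The SRF constructs had no GCH site between their 2 window sites, and these sites could not be placed relative to the motif, so protection of the motif itself was not measured.

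By the root mean square difference over 9 values, the left flank, window and right flank differences from no motif in the 3 classes, the motifs most like SRF among 20 were ARNTL at 9.83 points, BHLHE40 at 11.1 and TRP53_r at 11.8. By the mean absolute difference REST_r came first, at 8.44 points. In the right flank ARNTL was at 5.06, 5.23 and 24.2 points in unphased, nuc and non_nuc. Its libraries overlapped those of no motif in unphased and nuc and were above them in non_nuc, whereas those of SRF were above them in all 3 classes. The right flanks of CTCF, REST, BANP, TRP53 and RFX2 were also above no motif in all 3 classes, so this does not set SRF apart. In the unphased left flank and window ARNTL was at -12.0 and -2.52 points, beside 6.02 and 9.25 for SRF. In the same nuc regions ARNTL was at -10.1 and -2.87 points, beside -0.594 and 5.31 for SRF. In non_nuc ARNTL was at 10.4 and 0.933 points there, beside 12.7 and 5.62 for SRF. The nuc replicates of ARNTL differed widely, each lying 14.0 to 22.6 points on average from the mean of the others, so its likeness to SRF is uncertain. BHLHE40, a bHLH repressor, was at 8.31, 7.17 and 13.1 points in unphased, nuc and non_nuc. TRP53_r was at 5.49, 4.55 and 3.70 points. In non_nuc SRF was at 32.3 points, or 24.3 without its replicate 3, beside 24.2 for ARNTL with all its replicates. By replicate the non_nuc right flank was at 65.1%, 57.7% and 85.4% with SRF and at 68.1%, 50.4% and 65.2% with ARNTL. ARNTL shared the pool of SRF in non_nuc, so those 2 profiles come from the same libraries. In nuc, ARNTL was listed in the pool of SRF and, with identical values, in another pool. Whether its nuc profile comes from the libraries of SRF is thus not known.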

How the data were processed

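Amplicon NOMe-seq was deposited for 115 libraries, 36 unphased, 15 nuc, 9 non_nuc and others not used here. Genomic DNA was isolated by phenol and chloroform extraction, bisulfite converted, amplified and prepared for sequencing with NEBNext reagents, per the labels' protocols. The submitters' processing notes name Trimmomatic 0.32, a read trimmer. Which aligner, methylation caller and genome build were used is not given in the sources used here. What the authors deposited, per the file headers, is the fraction methylated per cytosine position, construct and replicate, with no read counts. Depth is therefore unknown, no interval or detection limit is given, and low coverage could widen any value.

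GCH fractions were multiplied into percent, and the CGH files were not used. Of 257 SRF values 12 were missing, and of 253 without a motif 21. A site was used where none of the libraries of its construct lacked a value. The window was the span of the sites that at least 2 constructs had, in the gap between common sites (held by 0.9 of the class) with the most other sites. Flanks spanned 40 bp. Profiles identical in 2 pools (unphased MAX::MYC, nuc ARNTL) were counted once. A construct was called above another when all its libraries were. Differences from the pool median were taken within a library. The design had foreseen coverage limits, which could not be applied. Constructs were named by rule: SRF, no motif, the highest and lowest of the SRF pools, the 3 motifs most like SRF, and the neighbours in each ranking; leaders of a ranking and ELK4 were added after their values were seen, as were the stretches of sites and the window edge comparison. The members and lists were chosen with earlier results of these data known. Same-numbered replicates were checked for shared deviations. Scripts used Python 3.11.15, numpy 2.4.6 and pandas 2.3.3, and were tested on simulated data. The simulated libraries varied less than the SRF right flanks in nuc and non_nuc. That test thus does not show how reliable calls are at the spread seen there.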

Additional observations from a re-analysis of the deposited data

Results flagged for a closer look

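At 2 sites on the far left, all SRF libraries moved one way against the construct without a motif in nuc and the other way in non_nuc. Over all shared sites SRF was below no motif at 6 of 34 in nuc and above at 17 of 30 in non_nuc. With those shares, some opposite calls can fall on the same position number. How often this occurs for other motifs was not counted. At site 33, SRF minus no motif was -6.25 points in nuc (80.3% ± 5.43 against 86.5% ± 1.55, SD, n = 3 each) and 30.9 points in non_nuc (66.3% ± 13.9 against 35.4% ± 11.6). At site 96 it was -6.76 points in nuc (81.6% ± 5.58 against 88.4% ± 1.48) and 13.1 points in non_nuc (90.8% ± 2.78 against 77.7% ± 4.22). The difference between the classes was not tested at either site. The classes share position numbers but not their backbone, so equal numbers do not mean the same bases. Against the median of the same pool, the signs at site 33 were mixed in both classes, as they were at site 96 in nuc. Without a motif, the 3 non_nuc libraries at site 33 were 41.4%, 42.8% and 22.0%.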

How the results depend on the processing

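Of 530 alternatives, 509 were counted as unchanged, 19 moved a result further and 2 reversed a difference whose libraries did not overlap. Unchanged meant a value within the spread between libraries or a count within 1.5 times. Leaving out 1 library of 2 or 3 cannot shift a mean by as much as that spread, and a replicate block leaves the mean as it was. Such alternatives could therefore not be counted as moved, and the number unchanged does not measure robustness to them. For example, the non_nuc window difference of 5.62 points, which was -2.41 without replicate 3 of SRF, was counted as unchanged. On the log scale only direction was judged, and only for differences whose libraries did not overlap or all had the same sign. Other values on the log scale were counted as unchanged without a check. The sign changed in 32 alternatives in all, 30 of them for differences that compared contexts, or whose libraries overlapped or had mixed signs. A flank of 60 bp moved high sites out of the far right region, where the difference from no motif became -6.11 points in unphased and -0.241 in non_nuc. The unphased right flank was 18.9 points above no motif with a flank of 20 bp and 10.6 with 60 bp, and 15.2 and 8.63 above the pool median. Counts of constructs above no motif also moved. For the unphased left flank the count was 5 with at least 10 points and 9 with 60 bp, and for the unphased right flank it was 13 with at least 10 points. For the non_nuc left flank it was 2 with at least 10 points, 2 with 20 bp and 0 with 60 bp. The nearest motif by mean absolute difference was REST_r at 8.44 points. Leaving out 1 library at a time, the right flank difference from no motif ranged from 14.0 to 14.7 points in unphased, 9.45 to 17.4 in nuc and 24.3 to 38.2 in non_nuc. The log scale (M-values), other site sets and other pool averages changed no direction of a value without overlap. A coverage limit could not be run for lack of counts, a trimmed window had no SRF site left, and a 20 bp unphased left flank held no site.

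With a replicate block, the right flank differences were 14.3 ± 0.665 points in unphased, 13.7 ± 7.20 in nuc and 32.3 ± 18.2 in non_nuc (SD of same-numbered differences). The sign was the same in every pair, but all SRF libraries there were above all libraries without a motif. Any pairing thus gives that sign and the same mean, and only the SD depends on the pairing. Deviations of same-numbered libraries correlated, over sites, at -0.540, -0.0351 and -0.343 in nuc, and -0.165, -0.163 and -0.131 in non_nuc. The numbers were therefore not taken to pair the libraries in these classes. In unphased the value was 0.506, the highest over the replicate numbers. With 2 libraries a construct it is a single value and cannot settle whether they pair.

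With 2 or 3 libraries a construct and unknown depth, differences of a few points could not be resolved.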
